A study of Mus musculus with 20 samples.

Results

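The retinoid metabolism genes of mouse granulosa cells (GCs) are described here in 9 members: the binding proteins Rbp4, Crabp1 and Crabp2, the retinol dehydrogenases Adh1, Adh7 and Rdh10, the retinal dehydrogenases Aldh1a1 and Aldh1a2, and the retinoic acid hydroxylase Cyp26b1. They were matched by symbol to 9 of the 55487 gene identifiers that were counted. Adh1, Adh7, Aldh1a1, Aldh1a2 and Crabp2 had been chosen by their measured levels, namely for the way their counts differed between lines and stages, so their values are a description and no p-value is given for them. Rdh10, Rbp4, Crabp1 and Cyp26b1 were not picked in this way and were tested where they had enough reads.

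GCs are the somatic cells that line the follicle and surround the oocyte. The GCs came from 20 female mice, 5 in each of 4 groups: ctrl mice in estrus, FL1 mice in estrus, ctrl mice in diestrus and FL1 mice in diestrus. FL1 mice come from a line bred over many generations for large litters, and ctrl mice from an unselected line with the same founders. Each line exists once, so that selection and chance changes of a closed line cannot be told apart. The sources name no treatment of the mice. Mice were 77 ± 5 days old, the stage was read from vaginal smears, and the mural GCs of the 7 to 10 largest follicles of a mouse were pooled into 1 sample.

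Vitamin A reaches cells as retinol on the plasma carrier RBP4. Alcohol dehydrogenases and RDH10 oxidise retinol to retinal, and the ALDH1A enzymes oxidise retinal to retinoic acid in a step that cannot be reversed. CRABP2 hands retinoic acid to its nuclear receptors, and CYP26 enzymes break it down. In the ovary the pathway is known for local retinoic acid synthesis in follicles, where gonadotropins act on it, and for retinoic acid as a signal in germ cell meiosis.

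Between 5446576 and 8257041 reads per library fell on genes, with a median of 6457585.5. Levels are counts per 1000000 of these reads (CPM), scaled by the trimmed mean of M-values (TMM). The libraries were made from the 3′ ends of transcripts, so that a transcript gives about 1 read whatever its length, and levels were not divided by length. Every library carried the GC genes Inha and Foxl2, with Inha between 2725 and 7880 CPM and Foxl2 between 255.6 and 649.8 CPM. Of the theca markers Insl3 had 1 read over all 20 libraries, whereas Cyp17a1 was read in each of them (1.13 to 233.1 CPM), and the sum of 5 theca markers was 60.9 to 319.8 CPM. Of the markers of luteal, stromal, surface epithelial, endothelial and blood cells, only some luteal and stromal ones passed the edgeR test in any comparison. Values of these cell types are given after the members.

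Rbp4 (ENSMUSG00000024990, chr19:38116629-38125281 on the minus strand of GRCm38) encodes the carrier of retinol in plasma. In estrus Rbp4 was measured at 10.7, 14.9, 5.51, 0 and 0.867 CPM in ctrl mice and at 7.55, 0.376, 3.13, 4.08 and 7.65 CPM in FL1 mice. In diestrus it was at 0, 8.45, 6.55, 0 and 0.268 CPM in ctrl mice and at 6.10, 2.20, 4.87, 4.27 and 11.3 CPM in FL1 mice. Single mice of the ctrl line spanned the whole range from no read to the highest level, and the groups overlapped in both stages. The log2 fold change of FL1 against ctrl was -0.49 ± 1.09 (SE) in estrus and 0.91 ± 1.22 in diestrus, and neither passed the test (edgeR quasi-likelihood test, adjusted p = 0.944 and 1.00).

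Of the cellular retinoic acid binding proteins, Crabp1 (ENSMUSG00000032291, chr9:54764748-54773110, plus strand) was near the limit of detection. A single read, in 1 FL1 mouse in estrus, was counted over all 20 libraries, and 3 reads over all of them would have been 0.0225 CPM. Crabp1 was therefore not tested.

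Crabp2 (ENSMUSG00000004885, chr3:87948666-87953376, plus strand), which delivers retinoic acid to the nucleus, was the second most abundant member. In diestrus Crabp2 was at 118.8, 117.6, 66.7, 100 and 125.8 CPM in ctrl mice and at 295.1, 138.6, 158.6, 214.3 and 212.7 CPM in FL1 mice. All 5 FL1 mice lay above all 5 ctrl mice, as was the case for 0.823% of all genes tested. In estrus it was at 70.4, 164.6, 189.1, 100.7 and 90.4 CPM in ctrl mice and at 135.8, 82.2, 125.8, 72.5 and 104.6 CPM in FL1 mice, and the lines overlapped.

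Crabp2 was thus 1.94-fold higher in FL1 than in ctrl mice in diestrus (log2 fold change 0.95 ± 0.24, SE, n = 5 per group). In estrus the log2 fold change between the lines was -0.24 ± 0.27. Within FL1 mice Crabp2 was 1.94-fold higher in diestrus than in estrus (0.96 ± 0.24) with no overlap of the stages (1.11% of all genes tested were higher in diestrus in this way), whereas the stage difference in ctrl mice was -0.23 ± 0.27. The difference of both line differences, diestrus minus estrus, was 1.19 ± 0.37 on the log2 scale. The edgeR test of this difference called 0 of 14938 genes. The values of Crabp2 are a description, since it was picked for this pattern.

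**Figure D1:**
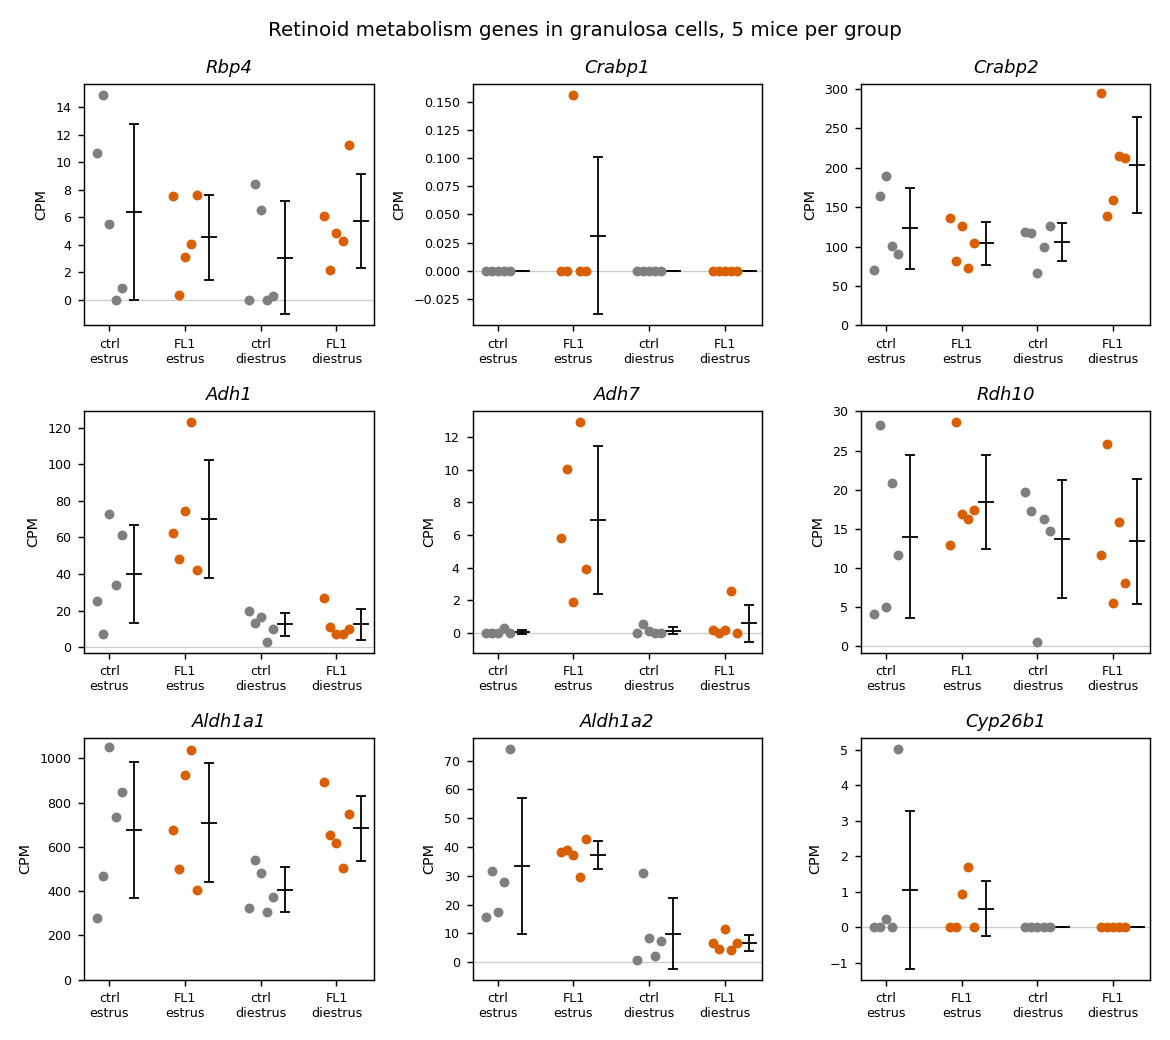
Level of each retinoid metabolism gene in CPM (linear axis, own scale per gene) in the 4 groups. Each point is 1 mouse (grey ctrl, orange FL1), and the dash with bars beside the points is the mean with the SD. Adh7 reached 1.88 to 12.9 CPM in FL1 mice in estrus and stayed at or below 2.56 CPM elsewhere, and Crabp2 was at 138.6 CPM or more in all FL1 mice in diestrus.

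Adh1 and Adh7 belong to the alcohol dehydrogenase cluster of chromosome 3 and are neighbours on the same strand. Adh7 (ENSMUSG00000055301) lies at chr3:138217760-138233382 and Adh1 (ENSMUSG00000074207) at chr3:138260991-138290698, with 27608 bases between them. The 250 bases before the RefSeq transcription start of each gene (GRCm38.p6, plus strand) are shown because the neighbours differed from each other in their contrast between the lines. The windows are chr3:138217523-138217772 for Adh7 and chr3:138277335-138277584 for Adh1, the latter inside the span that GENCODE gives to the gene. Capitals mark matches on either strand. The letters searched were the nuclear receptor half-site AGGTCA, its variant with the letters AGTTCA, the longer form CAAGGTCA that contains the half-site, the TATA box as TATAAA and the CCAAT box as CCAAT.
Adh7: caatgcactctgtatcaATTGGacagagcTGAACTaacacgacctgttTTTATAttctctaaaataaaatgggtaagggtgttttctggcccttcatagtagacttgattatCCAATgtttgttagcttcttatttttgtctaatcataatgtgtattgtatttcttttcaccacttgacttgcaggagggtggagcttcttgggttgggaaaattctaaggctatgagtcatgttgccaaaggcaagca
Adh1: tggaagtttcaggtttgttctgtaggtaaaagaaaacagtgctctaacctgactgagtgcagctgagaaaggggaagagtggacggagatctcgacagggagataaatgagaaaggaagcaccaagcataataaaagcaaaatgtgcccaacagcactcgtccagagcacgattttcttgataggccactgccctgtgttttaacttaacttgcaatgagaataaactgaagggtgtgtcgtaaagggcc
The Adh7 window held AGTTCA at 221, TATAAA at 202 and CCAAT at 233 and 138 bases before the start, and the Adh1 window held none of these letters. AGTTCA was found in 11.8% of the 32851 RefSeq windows of this length, AGGTCA in 14%, CAAGGTCA in 1.33%, TATAAA in 12.4% and CCAAT in 33.8%. RefSeq windows were found for 7 of the 9 members, Crabp2 and Rdh10 being the others.

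Adh7, an enzyme of epithelia that takes retinol as a substrate, was read almost only in FL1 mice in estrus. There the 5 libraries held 37, 80, 12, 92 and 23 reads of Adh7 (5.82, 10.0, 1.88, 12.9 and 3.91 CPM), whereas the 5 libraries of ctrl mice in estrus held 0, 0, 0, 2 and 0 reads. All FL1 mice lay above all ctrl mice, which was so for 1.85% of all genes tested. Summed over the mice these were 244 against 2 reads, a 124.92-fold higher rate, and both ctrl reads came from 1 mouse. Without that mouse (ctrl estrus replicate 4) the fitted log2 fold change was 8.57 in place of 6.49. The ratio leaves out the spread between mice.

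In diestrus Adh7 had 1, 0, 1, 15 and 0 reads in FL1 mice and 0, 4, 1, 0 and 0 reads in ctrl mice. Of the 17 reads in FL1 mice 15 came from 1 mouse, so the 3.61-fold ratio of the sums rests on that mouse. Within FL1 mice the estrus sum was 13.4-fold higher than the diestrus sum. The fitted log2 fold change of diestrus against estrus was -3.57 ± 1.27, and it was -6.16 without that mouse (FL1 diestrus replicate 4).

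Adh1, the class I alcohol dehydrogenase, was more abundant than Adh7 in each of the groups and followed the stage. In estrus Adh1 was at 25.6, 6.99, 72.6, 33.95 and 61.4 CPM in ctrl mice and at 62.5, 48.3, 74.6, 123.2 and 42.0 CPM in FL1 mice. In diestrus it was at 19.9, 13.4, 16.4, 3.10 and 10.1 CPM in ctrl mice and at 27.0, 10.8, 7.15, 7.18 and 10.1 CPM in FL1 mice. In FL1 mice every estrus value was above every diestrus value (1.32% of all genes tested were lower in diestrus without overlap), whereas in ctrl mice the stages overlapped because of 1 estrus mouse at 6.99 CPM.

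Mean Adh1 in FL1 mice was 70.1 ± 32.3 CPM (SD, n = 5) in estrus and 12.5 ± 8.32 CPM in diestrus, a log2 fold change of -2.50 ± 0.41 (SE). In ctrl mice the means were 40.1 ± 26.7 and 12.6 ± 6.42 CPM, a log2 fold change of -1.67 ± 0.54. Between the lines the log2 fold change of Adh1 was 0.80 ± 0.44 in estrus and -0.01 ± 0.54 in diestrus, with overlapping values in both.

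Rdh10 (ENSMUSG00000025921, chr1:16105774-16133734, plus strand) encodes the retinol dehydrogenase that makes most retinal in the embryo. Rdh10 was at 4.09, 28.3, 4.93, 20.8 and 11.6 CPM in ctrl mice and at 12.9, 28.7, 16.9, 16.2 and 17.4 CPM in FL1 mice in estrus. In diestrus it was at 19.7, 17.3, 0.535, 16.2 and 14.8 CPM in ctrl mice and at 11.6, 25.8, 5.52, 15.9 and 8.04 CPM in FL1 mice. The group means lay between 13.4 and 18.4 CPM and all groups overlapped.

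Rdh10 and Rbp4 were the members outside the picked set that could be tested, and 0 of these 2 passed in any comparison (edgeR, adjusted p at or below 0.05). DESeq2 called 0 of them as well, and 0 had an unadjusted p under 0.05. Among all genes tested 0.769% passed between the lines in estrus, 0.248% between the lines in diestrus, 1.36% between the stages in ctrl mice and 0.221% between the stages in FL1 mice, so that no call among 2 genes does not set them apart. For Rdh10 the log2 fold change of FL1 against ctrl was 0.40 ± 0.51 in estrus (adjusted p = 0.877) and -0.02 ± 0.65 in diestrus (adjusted p = 1.00). Between the stages it was -0.04 ± 0.70 in ctrl mice (adjusted p = 0.993) and -0.47 ± 0.44 in FL1 mice (adjusted p = 0.832). These errors are wide, and a change of Rdh10 within them was not detectable in 5 against 5 mice.

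**Figure D2:**
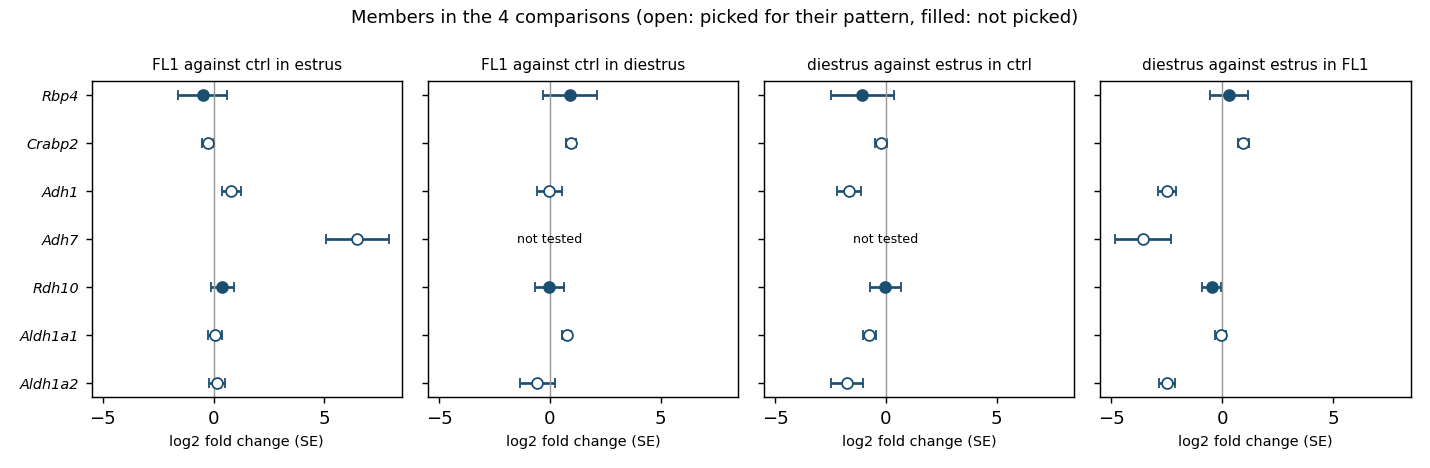
Log2 fold change with its standard error (edgeR) of the 7 members that could be tested, in each of the 4 comparisons of 5 against 5 mice. Open circles are members picked for their pattern, filled circles are Rbp4 and Rdh10. Crabp2 stands at 0.95 in diestrus and Adh7 at 6.49 in estrus, and Adh1 and Aldh1a2 stand at -2.50 and -2.49 between the stages in FL1 mice.

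Of the retinal dehydrogenases, Aldh1a1 (ENSMUSG00000053279, chr19:20492715-20643465, plus strand) was the most abundant member in all 20 libraries. In diestrus it was at 324.1, 542.3, 482.8, 308.1 and 374.5 CPM in ctrl mice and at 892.4, 654.5, 615.8, 503.9 and 750.6 CPM in FL1 mice. In estrus it was at 277, 469.2, 1053, 734.5 and 846.4 CPM in ctrl mice and at 676.2, 502.3, 923.5, 1039 and 406.1 CPM in FL1 mice. In diestrus a single ctrl mouse (542.3 CPM) reached into the range of the FL1 mice, whereas in estrus the lines overlapped widely.

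Aldh1a1 was 1.69-fold higher in FL1 than in ctrl mice in diestrus (log2 fold change 0.76 ± 0.21) and 1.05-fold higher in estrus (0.07 ± 0.31). In ctrl mice diestrus was lower than estrus by a log2 fold change of -0.74 ± 0.29, and in FL1 mice this value was -0.07 ± 0.26. The group of ctrl mice in diestrus therefore had the lowest mean, 406.4 ± 102.2 CPM, and the other means lay between 676 and 709.5 CPM.

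Aldh1a2 (ENSMUSG00000013584, chr9:71215789-71296243, plus strand), the main source of retinoic acid in the embryo, was lower in diestrus in both lines. In FL1 mice it was at 38.2, 38.8, 37.4, 29.4 and 42.9 CPM in estrus and at 6.57, 4.67, 11.4, 4.27 and 6.50 CPM in diestrus, with no overlap (beside 1.32% of all genes tested). In ctrl mice it was at 15.8, 31.6, 17.6, 27.8 and 74.1 CPM in estrus and at 0.716, 31.0, 8.43, 2 and 7.37 CPM in diestrus. The 1 ctrl mouse in diestrus at 31.0 CPM made the stages overlap in that line.

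The log2 fold change of diestrus against estrus for Aldh1a2 was -2.49 ± 0.35 in FL1 mice and -1.75 ± 0.71 in ctrl mice, and without ctrl diestrus replicate 2 the ctrl value was -2.82. Between the lines it was 0.16 ± 0.36 in estrus and -0.55 ± 0.79 in diestrus, and the latter turned to 0.52 without ctrl diestrus replicate 2. The FL1 mice in estrus were close to each other in Aldh1a2 (SD 4.91 CPM around 37.3), whereas the ctrl mice in estrus spread with an SD of 23.7 CPM around 33.3.

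In RefSeq the Aldh1a2 start lies directly behind chr9:71215539-71215788, and a start of Aldh1a1 inside the gene lies behind chr19:20601718-20601967. Both windows of 250 bases (plus strand, capitals as above) are shown because these enzymes carry out the same reaction and differed in stage dependence.
Aldh1a2: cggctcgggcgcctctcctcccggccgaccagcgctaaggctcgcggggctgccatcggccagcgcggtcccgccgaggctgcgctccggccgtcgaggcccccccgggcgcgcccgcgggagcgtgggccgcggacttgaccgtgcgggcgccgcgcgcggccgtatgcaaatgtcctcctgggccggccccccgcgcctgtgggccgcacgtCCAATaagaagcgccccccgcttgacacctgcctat
Aldh1a1: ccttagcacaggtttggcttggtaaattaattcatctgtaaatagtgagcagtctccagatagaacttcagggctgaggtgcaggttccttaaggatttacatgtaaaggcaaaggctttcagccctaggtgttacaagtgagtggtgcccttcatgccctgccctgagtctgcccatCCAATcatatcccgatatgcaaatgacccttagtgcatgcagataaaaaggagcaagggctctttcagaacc
CCAAT lay 36 bases before the start of Aldh1a2 and 72 bases before that of Aldh1a1, and none of the other letters searched was in either window. RefSeq gives a second start of Aldh1a1 near the GENCODE start of the gene, and its window, chr19:20492333-20492582, held none of the letters and is not printed.

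Reads of Aldh1a1 made up between 88.8% and 99.8% of the reads of Aldh1a1, Aldh1a2, Aldh1a3 and Aldh1a7 together in single libraries. The share of Aldh1a2 in these reads had a median of 5.39% in ctrl and 5.29% in FL1 mice in estrus. In diestrus the medians were 1.67% and 0.820%. In ctrl mice the shares of single libraries overlapped between the stages (1.64% to 8.02% in estrus, 0.220% to 5.33% in diestrus), whereas in FL1 mice they did not (2.75% to 9.37% and 0.691% to 1.77%). The shares were not tested.

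Cyp26b1 (ENSMUSG00000063415, chr6:84571414-84593908, minus strand), which inactivates retinoic acid, was read in estrus only in these libraries. Its counts were 0, 0, 2, 0 and 29 in ctrl mice and 0, 0, 6, 12 and 0 in FL1 mice in estrus, and 0 in all 10 diestrus libraries. Of the 31 reads in ctrl mice 29 were from 1 mouse (ctrl estrus replicate 5), and the 2 that remain without it are below the floor of 3 reads over a group, so that no fold is given for the ctrl line. In the FL1 line the 18 reads came from 2 mice, 12 of them from FL1 estrus replicate 4, so that no fold is given there either. With reads in 4 of 10 estrus mice, Cyp26b1 was too sparse for the test.

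In FL1 mice in estrus, where Adh7 was highest, luteal markers were high as well. The summed level of Lhcgr, Ptgfr, Prlr, Akr1c18, Sfrp4, Parm1 and Onecut2 was 1807 to 4509 CPM in FL1 mice in estrus and 248.5 to 656.6 CPM in ctrl mice in estrus. All 7 had a positive log2 fold change there and 3 were called (Akr1c18, Prlr and Lhcgr). In FL1 mice in diestrus the sum ranged from 491.9 to 3160 CPM. In FL1 estrus replicates 1 to 5 the luteal sums were 3021, 3414, 4509, 1807 and 3600 CPM. Adh7 in the same order was at 5.82, 10.0, 1.88, 12.9 and 3.91 CPM, highest where the luteal sum was lowest. In FL1 diestrus replicates 1 to 5 the luteal sums were 3160, 1834, 826.4, 491.9 and 1035 CPM. Adh7 there had 1, 0, 1, 15 and 0 reads. The sum of 7 surface epithelial markers was 29.9 to 81.5 CPM in FL1 and 4.09 to 35.04 CPM in ctrl mice in estrus. All 7 were tested between the lines there, with a median log2 fold change of 1.77, 1 negative and 0 called. The leukocyte sum was 45.6 to 112.9 CPM in FL1 and 19.4 to 63.15 CPM in ctrl mice in estrus. The part of luteal, surface epithelial and blood cells in the Adh7 values was not tested. In bulk samples fewer cells of a type and less RNA per cell cannot be told apart.

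Stromal markers were mostly lower in diestrus in both lines, as were Adh1 and Aldh1a2. The summed level of the stromal markers Col1a1, Col1a2, Col3a1, Dcn, Lum, Pdgfra and Tcf21 was 567.2 to 1254 CPM in ctrl mice and 862.2 to 1721 CPM in FL1 mice in estrus. In diestrus it was 146.7 to 670.7 CPM and 137.6 to 1183 CPM. Of the 7, all had a negative log2 fold change between the stages in ctrl mice (1 called, Col3a1) and 6 in FL1 mice (0 called). The sum of 7 surface epithelial markers, among them Upk3b and Krt19, was 29.9 to 81.5 CPM in FL1 mice in estrus against 4.79 to 36.4 CPM in diestrus, and 4.09 to 35.04 against 1.46 to 38.8 CPM in ctrl mice. The 3 surface epithelial markers tested in ctrl mice had a median log2 fold change of 0.61 between the stages, 1 of them negative. Smooth muscle markers had medians of -0.68 in ctrl and -0.59 in FL1 mice, with 0 called. FL1 diestrus replicates 1 and 2 had stromal sums of 1183 and 1078 CPM with Aldh1a2 at 6.57 and 4.67 CPM. The others of that group had stromal sums of 137.6 to 719.4 CPM. The part of these cells in the Adh1 and Aldh1a2 values was not tested.

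Markers of some other cell types also had higher values in FL1 mice in diestrus, where Crabp2, Aldh1a1 and Scarb1 were higher. All tested markers of luteal cells (7, median log2 fold change 1.62), stroma (7, 1.21), endothelium (5, 1.46), leukocytes (4, 2.20) and erythroid cells (3, 1.87) had a positive log2 fold change there, with 0 called by edgeR. The luteal sum was 380.1 to 786.9 CPM in ctrl and 491.9 to 3160 CPM in FL1 mice, and the leukocyte sum 7.69 to 20.1 and 12.4 to 81.1 CPM. GC markers had a median log2 fold change of -0.03. In the stage comparison of ctrl mice the tested endothelial (5), leukocyte (4) and erythroid (3) markers were all lower in diestrus, with 0 called. The part of these cells in the values of Crabp2, Aldh1a1 and Scarb1 was not tested.

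**Figure D3:**
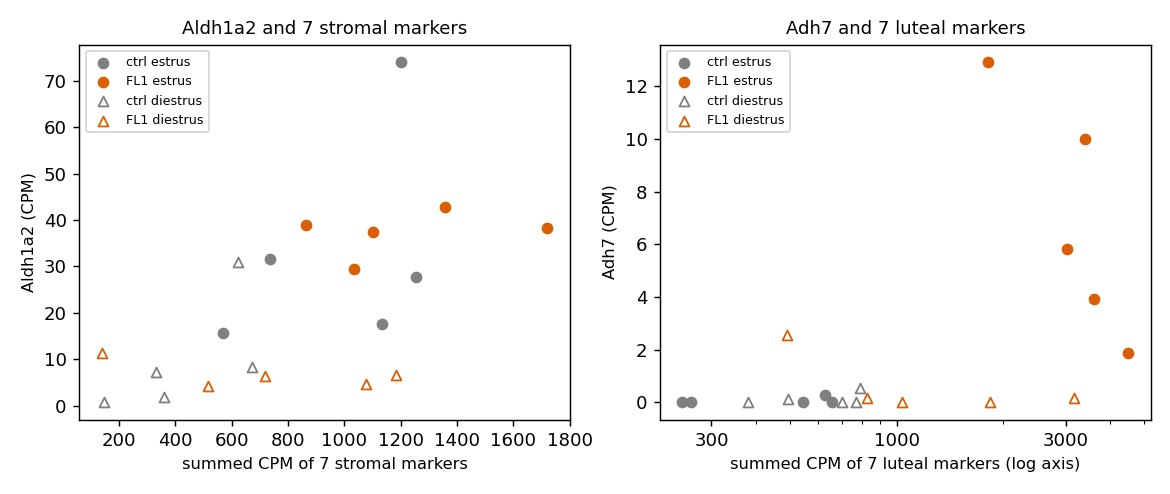
Left, Aldh1a2 in CPM against the summed CPM of 7 stromal markers. Right, Adh7 in CPM against the summed CPM of 7 luteal markers (log axis). Each symbol is 1 mouse (circles estrus, open triangles diestrus, grey ctrl, orange FL1). The FL1 mice in estrus have Aldh1a2 at 29.4 to 42.9 CPM and luteal sums of 1807 CPM and more, and the FL1 mice in diestrus have Aldh1a2 at 4.27 to 11.4 CPM with stromal sums of 137.6 to 1183 CPM.

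The other genes of the pathway were taken from 6 lists with 54 genes. Of these, 27 had enough reads for the test in at least 1 comparison and 27 in none, 14 of which had no read in any library. The only call was Scarb1, a receptor for high density lipoprotein that also takes up carotenoids, in the stage comparison of ctrl mice (1 of 24 genes tested, beside 1.36% of all genes). Between the lines 0 of 27 passed in estrus (3 at an unadjusted p under 0.05, beside 10.7% of all genes tested) and 0 of 25 in diestrus (4, beside 5.56%). Between the stages in FL1 mice 0 of 26 passed (7 at an unadjusted p under 0.05, beside 9.48% of all genes), and in ctrl mice 7 of 24 had an unadjusted p under 0.05 (beside 11.8%). DESeq2 called 0 of them between the lines in estrus and 2 in diestrus (Rarg and Scarb1), beside 2.70% and 0.722% of all genes. Between the stages it called 5 in ctrl and 2 in FL1 mice, beside 3.42% and 1.74%. The 2 in FL1 mice, Fabp5 and Tgm2, are named after their values were seen. The median log2 fold change of the tested pathway genes was 0.09, 0.31, -0.16 and 0.03 for the lines in estrus, the lines in diestrus, the stages in ctrl and the stages in FL1 mice, beside medians of 0.01, 0.01, 0.00 and 0.01 over all genes tested.

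Among the uptake genes Scarb1 was at 680.9, 767.8, 793.6, 716.3 and 671.6 CPM in ctrl mice in estrus and at 283, 580.3, 424.2, 292.4 and 289.7 CPM in diestrus, with no overlap (1.84% of all genes tested were lower in this way). It fell by 0.96 ± 0.21 on the log2 scale (edgeR, adjusted p = 0.0293), but the call was lost in 8 of 10 fits that left out 1 library (adjusted p between 0.00675 and 0.0962). In FL1 mice Scarb1 was at 797.4, 912.7, 762.3, 788.4 and 817.9 CPM in estrus and at 829.6, 603.5, 610.4, 614.3 and 637.2 CPM in diestrus, a log2 fold change of -0.32 ± 0.18 (adjusted p = 0.637). In diestrus all FL1 mice lay above all ctrl mice in Scarb1 (0.83 ± 0.22, adjusted p = 0.272), as for 0.823% of all genes tested. The test of the interaction did not pass for it (0.65 ± 0.27, adjusted p = 0.999).

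Stra6, the membrane receptor for RBP4, had means of 49.3 ± 23.6 CPM in ctrl mice in estrus and 8.59 ± 7.54 CPM in diestrus. Its log2 fold change of -2.52 ± 0.70 in ctrl mice did not pass (edgeR, adjusted p = 0.102), though it did without the filter on low counts (0.000463), in 1 fit of all libraries (0.0430) and without ctrl diestrus replicate 1 (0.0462), nor did that of -1.16 ± 0.39 in FL1 mice (adjusted p = 0.278). Stra6 did not pass between the lines either (log2 fold change -0.35 ± 0.36 in estrus, adjusted p = 0.834, and 1.03 ± 0.78 in diestrus, adjusted p = 1.00, edgeR).

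Dhrs3, which reduces retinal back to retinol, kept group means between 33.6 and 45.4 CPM. Aldh1a7, a close relative of Aldh1a1, was at 2.35 and 2.47 CPM in estrus and at 6.45 and 8.95 CPM in diestrus in ctrl and FL1 mice, and passed in no comparison. Aldh1a3 had means of 0.977 to 3.92 CPM, which are uncertain because a stretch of 120 to 209 bases within its last 500 matches 155 other genes. Cyp26a1, the other main retinoic acid hydroxylase, had 4 reads in 1 FL1 mouse in estrus and none elsewhere.

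Of the receptors Rara and Rarg were expressed, with group means of 18.8 to 30.1 CPM for Rara and 16.1 to 47.4 CPM for Rarg. Rarb, which retinoic acid itself induces in many cells, had 5 reads in each of 2 FL1 mice and none in the other 18, and its last bases also match 1 other gene. Rarg was highest in ctrl mice in diestrus at 25.4, 20.1, 56.6, 68.9 and 66.0 CPM, against 7.35, 24.7, 13.2, 21.7 and 13.7 CPM in FL1 mice. The log2 fold change between the lines in diestrus was -1.54 ± 0.40 (edgeR, adjusted p = 0.233).

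**Figure D4:**
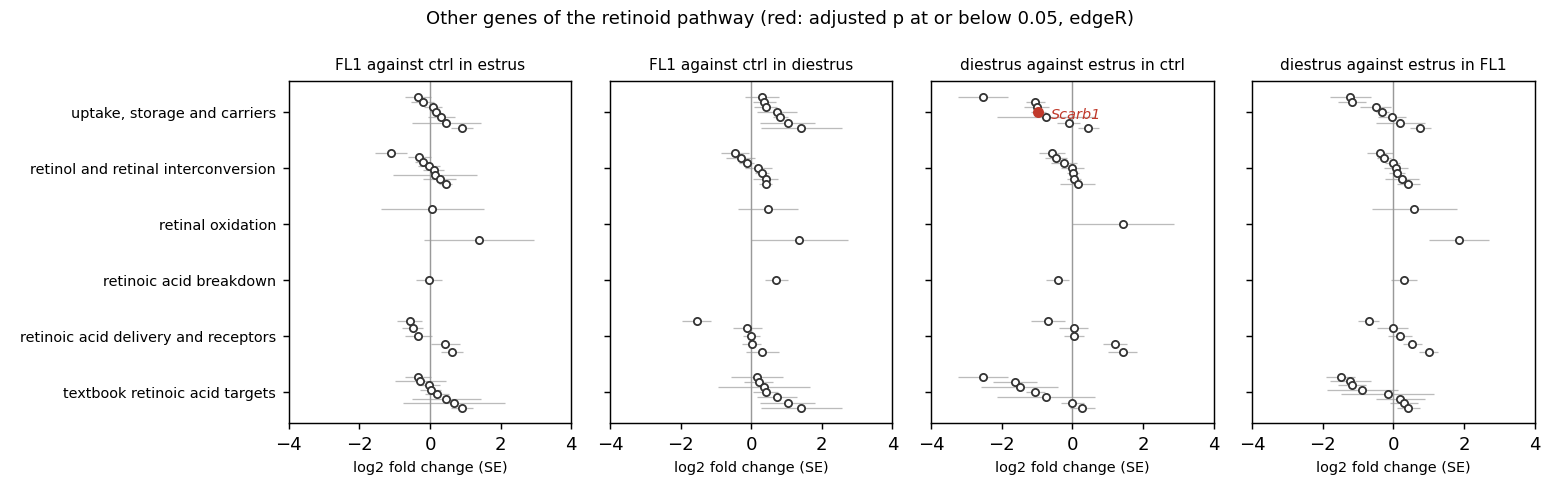
Log2 fold change with its standard error of the other retinoid genes that could be tested, by list, in the 4 comparisons of 5 against 5 mice. Genes that stand in 2 lists are drawn in both. Scarb1 in the stage comparison of ctrl mice (-0.96, red) is the only gene that passed, and all other genes are open circles.

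Whether the line difference was unlike between the stages was tested over all 20 libraries. This interaction was called for 0 of 14938 genes by edgeR (0%, with 710 genes or 4.75% at an unadjusted p under 0.05), and thus for neither Rdh10 nor Rbp4. For Rdh10 the difference of the line differences was -0.43 ± 0.86 and for Rbp4 1.39 ± 1.71, both with an adjusted p of 1.00 in edgeR. DESeq2 called 0 genes as well. The genes tested include the 5 picked members, for which no p-value of this test is given. The value of Crabp2 (1.19 ± 0.37) is a description.

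Across the 20 libraries, which share the line and stage groups, the members were related to each other only in part. Adh1 and Aldh1a1 had a Pearson r of 0.563 in log2 CPM, and 0.654 after the group means were removed. Adh1 and Aldh1a2 had an r of 0.617, and 0.060 after the group means were removed. Adh1 and its neighbour Adh7 had an r of 0.532, and 0.013 after the group means were removed. The first of these 3 relations was thus also seen between mice of a group, and the other 2 were near 0 there.

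Among the 14938 genes compared, those with the most similar levels over the 20 libraries were Col5a1 (r = 0.883) and Trf (r = 0.869) for Aldh1a2, and Capns1 (r = 0.865) and Hist1h1c (r = 0.851) for Adh1. For Adh7 they were Ptp4a2 (r = 0.860) and Plin5 (r = 0.830), and for Aldh1a1 1500015A07Rik (r = 0.788) and Lhx9 (r = 0.775). For Crabp2 they were Zfp719 (r = 0.762) and Chpt1 (r = 0.742), for Rbp4 Ercc6l (r = 0.804) and Cdkn2c (r = 0.794), and for Rdh10 Crot (r = 0.729) and Nlrp9c (r = 0.723). The correlations are a description over libraries that differ in line, stage and depth.

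Ordered by mean, FL1 mice in estrus came first and ctrl mice in estrus second for Adh1, Aldh1a2 and Rdh10. For Crabp2 FL1 mice in diestrus came first (204 CPM), followed by ctrl mice in estrus (123 CPM). For every member the ranges of neighbours in this order overlapped. No other gene shared 90% of the last 500 bases with a member over 100 bases or more, and genes on the opposite strand within Adh1, Adh7, Aldh1a1 and Aldh1a2 had no read.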

How the data were processed

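GCs of 20 mice were sequenced by QuantSeq 3′ mRNA-Seq (forward kit). Raw counts per gene were deposited by the authors for each library after trimming and alignment with STAR 2.6.0a to GRCm38 (Ensembl release 95). The strand setting of the counting is not given in the sources used here. Rows for reads outside genes were left out, and 48.9% to 58.4% of all reads were on genes. Symbols and positions are from GENCODE M21, which held 55227 of the 55487 identifiers. Groups came from the labels for strain and stage. That samples of 1 group are separate mice is stated in the methods of the study.

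Lines were compared within each stage and stages within each line with the quasi-likelihood test of edgeR 4.0.16 (R 4.3.3) on these counts, with TMM scaling, a filter on low counts (minimum count 10, minimum total 15, minimum share 0.7), Benjamini-Hochberg adjustment over all genes tested and a threshold of 0.05. For the interaction all 20 libraries entered 1 model. log2 CPM has a prior count of 2. Ratios of summed counts are given without an interval, since they leave out the spread between mice. The reads carry no molecular identifiers, and 3 counts are the floor. Alternatives were DESeq2 1.42.0, RLE size factors, no filter, the replicate number as a block, each library left out and 1 fit of all libraries. The steps were tested on simulated data. Gene tails were compared with BLAST 2.17.0. The members and lists were chosen with earlier results of these data known. Named are all members, the pathway genes called in any comparison, 9 pathway genes in any case (1 of them is not reported here) and the 2 genes most like each member.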

Additional observations from a re-analysis of the deposited data

Results flagged for a closer look

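In 15 of 66 groups of 5 libraries (22.7%) 1 library stood apart from the other 4 by Dixon's test at the 95% level. The usual rate of about 1 of 20 groups holds for normally distributed values and is no yardstick here. Many of the flagged groups have counts near 0, and a group with reads in a single library is always flagged. Adh7 was at 0.295 CPM in ctrl estrus replicate 4, 0.537 CPM in ctrl diestrus replicate 2 and 2.56 CPM in FL1 diestrus replicate 4. Crabp1 was at 0.156 CPM in FL1 estrus replicate 3, Cyp26a1 at 0.501 CPM in FL1 estrus replicate 2, and Rarb at 0.782 CPM in FL1 estrus replicate 3 and 0.687 CPM in FL1 diestrus replicate 2, with no read in the other 4 libraries of each group.

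Among the better measured genes, Aldh1a2 was at 74.1 CPM in ctrl estrus replicate 5, the library that also had Cyp26b1 at 5.03 CPM, and at 31.0 CPM in ctrl diestrus replicate 2. Adh1 was at 27.0 CPM in FL1 diestrus replicate 1, where Scarb1 was at 829.6 CPM. Rdh10 was at 28.7 CPM in FL1 estrus replicate 2 and at 0.535 CPM in ctrl diestrus replicate 3, and Aldh1a7 at 9.89 CPM in ctrl estrus replicate 4.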

How the results depend on the processing

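No log2 fold change that had passed the test changed its sign under any alternative, while values without a call crossed 0 (Rbp4 between the lines in estrus ranged from -0.81 to 0.38, and Aldh1a2 in diestrus was at 0.35 under the replicate block). The fitted log2 fold change of Adh7 between the lines in estrus ranged from 6.13 to 8.57. With DESeq2 and without a filter on low counts the share of all genes called was 2.70% and 1.55% in place of 0.769% between the lines in estrus, 0.722% and 0.439% in place of 0.248% in diestrus, and 1.74% and 1.23% in place of 0.221% between the stages in FL1 mice. Between the stages in ctrl mice it was 3.42% with DESeq2 in place of 1.36%, and without the filter 348 in place of 175 genes passed. The interaction was called for 0.0223% of genes (6 genes) without the filter. The replicate block, whose numbers did not pair the samples (correlations of deviations from -0.116 to 0.117), gave 0.446% in estrus and 0.101% in diestrus. One fit of all 20 libraries gave 0.435% between the stages in FL1 mice.

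Among the 58 retinoid genes that were not picked for their pattern, 0 passed in diestrus between the lines, which became 2 with DESeq2 (Rarg and Scarb1) and 1 without the filter (Rarg). Between the stages in ctrl mice 1 (Scarb1) became 5 with DESeq2, 4 without the filter and 3 in 1 fit of all libraries. In FL1 mice 0 became 2 under DESeq2 and without the filter. The cause was not tested.

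Leaving out 1 library gave 0.490% to 0.966% between the lines in estrus (lowest without FL1 estrus replicate 1) and 0.158% to 0.237% in diestrus (0.158% and 0.164% without FL1 and ctrl diestrus replicate 4). It gave 0.583% to 1.31% between the stages in ctrl mice (at most 0.893% without ctrl estrus replicate 2, 3 or 4 or ctrl diestrus replicate 3, 4 or 5). In FL1 mice it gave 0.0958% to 1.31%, the highest without FL1 diestrus replicate 1 and at most 0.133% without any other FL1 diestrus replicate. The interaction stayed at 0% to 0%. The retinoid genes called were then 0 to 0 and 0 to 0 between the lines, 0 to 2 between the stages in ctrl mice (2 without ctrl diestrus replicate 2), 0 to 3 in FL1 mice (3 without FL1 diestrus replicate 1) and 0 to 0 for the interaction. Depth limits Crabp1, Cyp26b1 and, in ctrl mice, Adh7, which rest on few reads.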
